A study of Mus musculus with 21 samples.

Results

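The genes described here encode respiratory complexes II to V of the mitochondrion. They were chosen by symbol: every listed gene beginning with Sdha, Sdhb, Sdhc, Sdhd, Uqcr, Cox, Atp5, mt-Co, mt-Cytb or mt-Atp, together with Cyc1 and Cycs. That rule found 57 of the 12791 genes with values, of which 55 are encoded in the nucleus and 2, mt-Cytb and mt-Co1, in mitochondrial DNA. By role, 4 are subunits of complex II, 9 are nuclear subunits of complex III, 12 are nuclear subunits of complex IV and 17 are subunits of complex V. The remaining nuclear members are 12 assembly factors and Cox7a2l, a protein that joins complexes III and IV. Cycs, mt-Co2, mt-Co3, mt-Atp6, mt-Atp8, Cox4i2, Cox6a2 and Cox8b were not analysed here.

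Complex II (succinate dehydrogenase) takes electrons from succinate, complex III passes electrons from ubiquinol to cytochrome c, and complex IV (cytochrome c oxidase) passes them to oxygen. Complexes III and IV pump protons as they do so, and complex V (ATP synthase) uses the returning protons to turn its c ring and make ATP. Complex II is encoded wholly in the nucleus, whereas the other complexes combine nuclear subunits with subunits encoded in mitochondrial DNA.

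RNA of the mouse uterus was sequenced in aged animals and in animals of 8 and of 5 weeks. All were wild type C57BL/6J, an inbred laboratory strain. Per the labels, each mouse received pregnant mare serum gonadotropin, a hormone with follicle-stimulating activity, at 5 units or 7.5 units, 48 hours before the uterus was taken, and the dose of each animal is not given. The values are CPM (reads of a gene scaled so that each library sums to 1000000) of 6 aged libraries, 7 libraries at 8 weeks and 7 at 5 weeks, called aged, 8w and 5w with a replicate number. Replicates 1 and 2 of every age form an earlier set, whose aged animals were 60 to 75 weeks old. The later set holds the other 4 aged libraries, from mice of 79 weeks, and the other 5 libraries of each younger age. The sets were told apart by the style of the sample names and the age of the old mice, since the labels name no batch. Whole uterus mixes cell types, so fewer cells of a type and less RNA per cell cannot be told apart.

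Depth was 19100690 to 30689439 reads in the 14 later-set libraries, against 12204573 to 14448283 reads in the 6 earlier-set libraries. Each library was taken as the sample named in its column header. For 15 of 20 columns that is another sample than the one their file was attached to, and 4 of these columns lie in a file of another age or set: those of aged replicates 2 and 5, 8w replicate 3 and 5w replicate 3. The column of 5w replicate 3 lies in a file of the aged group, and that of 8w replicate 3 in a file of the 5-week group. The sets differ for 7512 of 12791 genes (58.7%), in a term fitted over all ages. Mice of 8 and of 5 weeks had the same age in both sets, and the old mice did not. Sequencing and RNA extraction cannot be told apart between the sets. In aged libraries the age of the old mice cannot be told from these either. The labels name 2 instruments and 2 extraction kits without saying which libraries they belong to. As a check of the tissue, all 10 smooth muscle, all 9 epithelial and all 8 stromal marker genes of the uterus were listed, each covered by 10 or more reads per library. Nothing in the labels says how many animals each library stands for, so p-values measure the spread between these libraries, which may be technical.

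Aged uteri had less RNA of Cox5a of complex IV, the c-ring gene Atp5g3 of complex V and the iron-sulfur subunit Sdhb of complex II than uteri of either younger age, and more RNA of Cox7a2l. Against 8 weeks, 9 of 57 members fell (15.8%), against 8.53% of all genes, and 1 rose, against 8.64%. With median centring 10.5% of members fell there, against 10.6% of all genes. Against 5 weeks, 15 of 57 members fell (26.3%), against 9.41% of all genes, and 1 rose, against 12.7%. A gene was called at an adjusted p under 0.05 in limma, fitted to log2(CPM + 1) across all genes with the library set as a covariate. Every log2 fold change below is on that scale, as aged over younger, with its standard error after the ± sign.

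The fitted change was negative in 52 of 57 members against 8 weeks and in 51 of 57 against 5 weeks, while 45.4% and 42.9% of all genes were negative. The median member changed by -0.28 and -0.34 on the log2 scale, against 0.05 and 0.09 for all genes. Both comparisons share their aged libraries. Every one of the 9 nuclear complex III and 17 complex V subunits had a negative value in both, as did the 4 subunits of complex II. Of the 12 nuclear complex IV subunits 11 were negative, the exception being Cox4i1. No nuclear subunit changed sign with median centring, quantile normalization or scaling to nuclear genes.

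**Figure D1:**
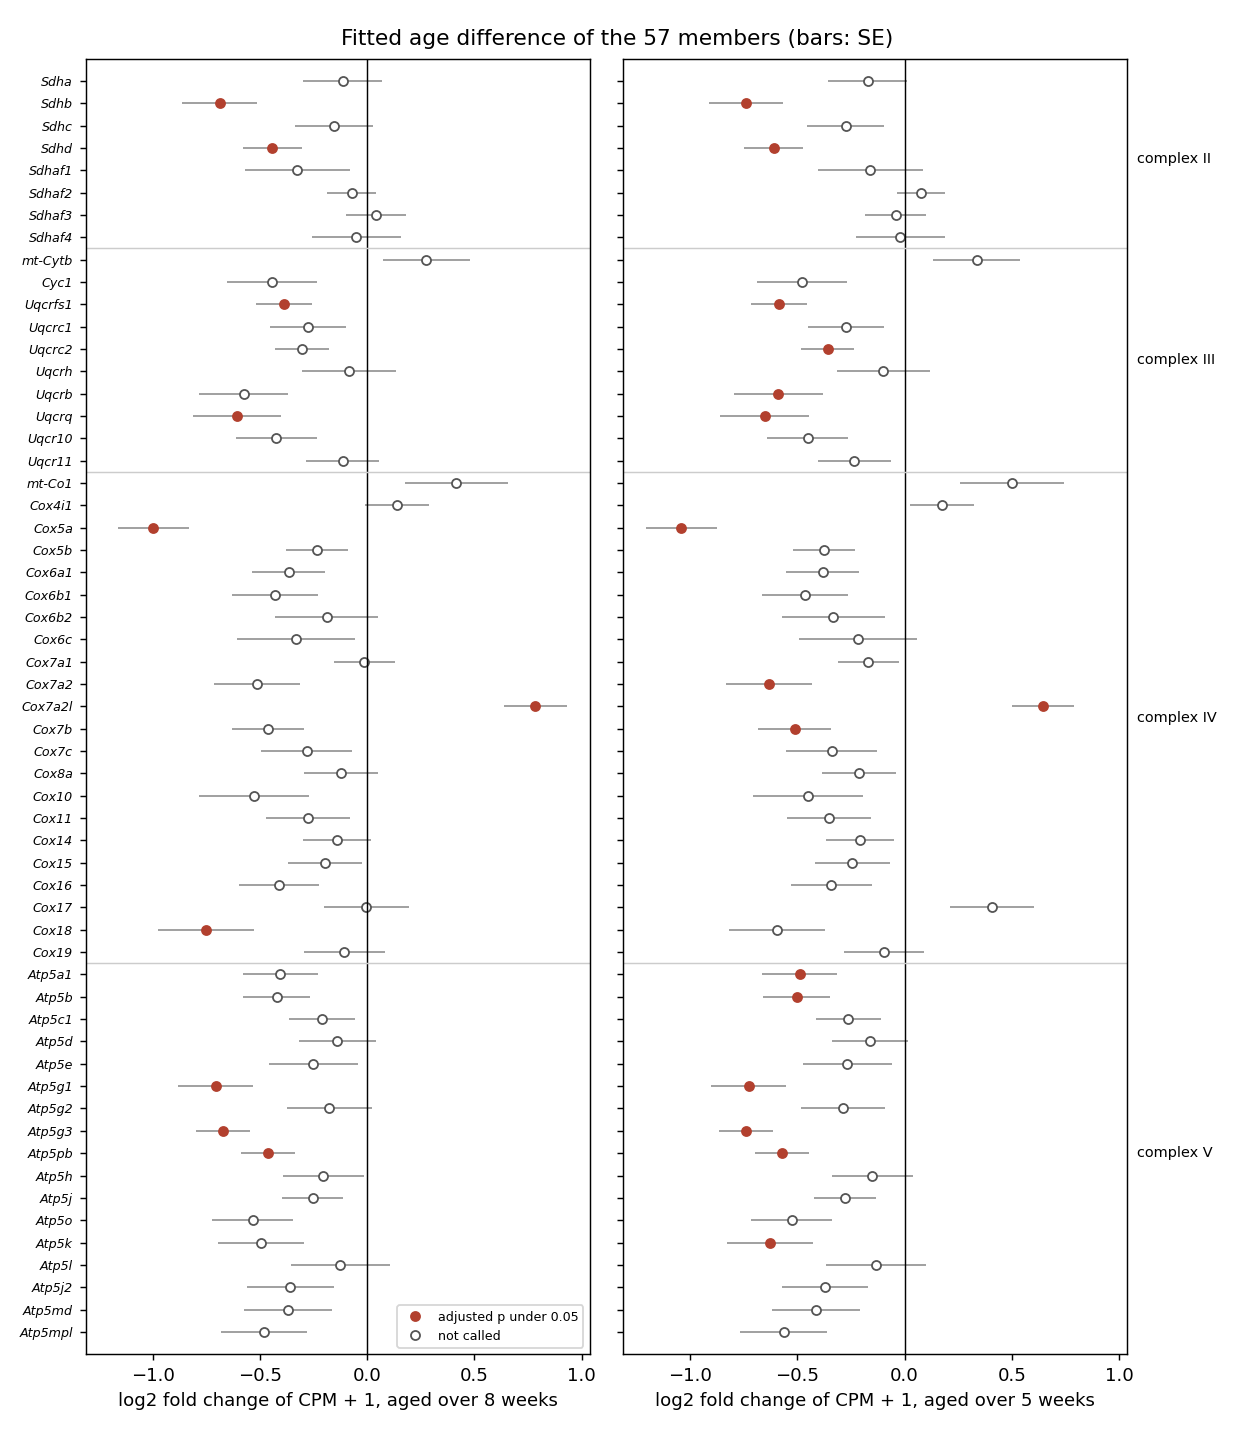
Log2 fold change of CPM + 1 (horizontal axis, bars are standard errors) of the 57 members, aged over 8 weeks on the left and aged over 5 weeks on the right, ordered by complex. Filled points passed an adjusted p of 0.05. Cox5a lies lowest in both panels, at -0.998 and -1.04, and Cox7a2l highest, at 0.78 and 0.65.

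Cox5a and Atp5g3 were the members whose 6 aged libraries all lay below all 14 younger libraries, a pattern found in 0.571% of all genes. No member had its 6 aged libraries above all 14 younger ones (0.586% of all genes). Within the later set the same 2 members lay below (2.11% of all genes) and 0 lay above (1.2%). In the earlier set, with 2 aged and 4 younger libraries, 38 members lay below (66.7%, against 24.8% of all genes). There 3 members, mt-Cytb, mt-Co1 and Cox7a2l, lay above (5.26%, against 30.8% of all genes).

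More members were called in the earlier set alone than in the later set alone. With the later set alone, limma called 0 members against 8 weeks, against 1.43% of all genes, and 2 (3.51%), Cox5a and Atp5g3, against 5 weeks, against 4.09% of all genes. At an unadjusted p under 0.05 there were 6 members (10.5%, against 14.5% of all genes) and 11 members (19.3%, against 20.6%). The earlier set alone gave 22 members (38.6%), against 28.2% of all genes, and 18 (31.6%), against 20.4%. The interaction of age with set was called for 0 of 57 members in either comparison, as for 3 of 12791 genes (0.0235%) against 8 weeks and 0 (0%) against 5 weeks. At an unadjusted p under 0.05 it was past the threshold for 10 members against 8 weeks and 5 against 5 weeks, and for 1855 and 1079 of all genes. Counts also rested on single libraries. The count against 8 weeks, 10 members in either direction, came to 6 (10.5%) without aged replicate 1 or 2 and to 6 without 8w replicate 1, 2 or 3, where 10.2% to 11.9% of all genes were called. The count against 5 weeks, 16 members, came to 8 without aged replicate 2 or 5w replicate 2, to 9 without aged replicate 1 or 5w replicate 7, and to 10 without aged replicate 7 or 5w replicate 6, that is, 14.04% to 17.5% of members, against 15.5% to 20.5% of all genes. Without the 4 libraries filed under another age or set, 3 members (5.26%) were called against 8 weeks, against 11.2% of all genes, and 9 (15.8%) against 5 weeks, against 19.9%. In the falling direction these shares were 3.51% of members, against 5.20% of all genes, and 14.04%, against 7.72%. Cox5a, Atp5g3 and Cox7a2l were among the members called in both.

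Sums of the nuclear subunits had a lower mean in the aged group than at either younger age in both sets. In the earlier set the 42 nuclear subunits summed to 6453 ± 452 CPM (SD, n = 2) in aged libraries, against 10223 ± 974 CPM in 8-week and 9882 ± 759.8 CPM in 5-week libraries (n = 2 each). Later-set sums were 10218 ± 1296 CPM (SD, n = 4) in aged libraries, against 11944 ± 1363 CPM and 12783 ± 1925 CPM in 8-week and 5-week libraries (n = 5 each). Aged and 8-week libraries of the later set overlapped in the sum of every complex, while aged libraries lay below all 5-week ones for complexes II and V. For complex V the sum there was 4938 ± 463 CPM in aged, against 5921 ± 471 CPM in 8-week and 6399 ± 725 CPM in 5-week libraries. These sums were not tested.

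**Figure D2:**
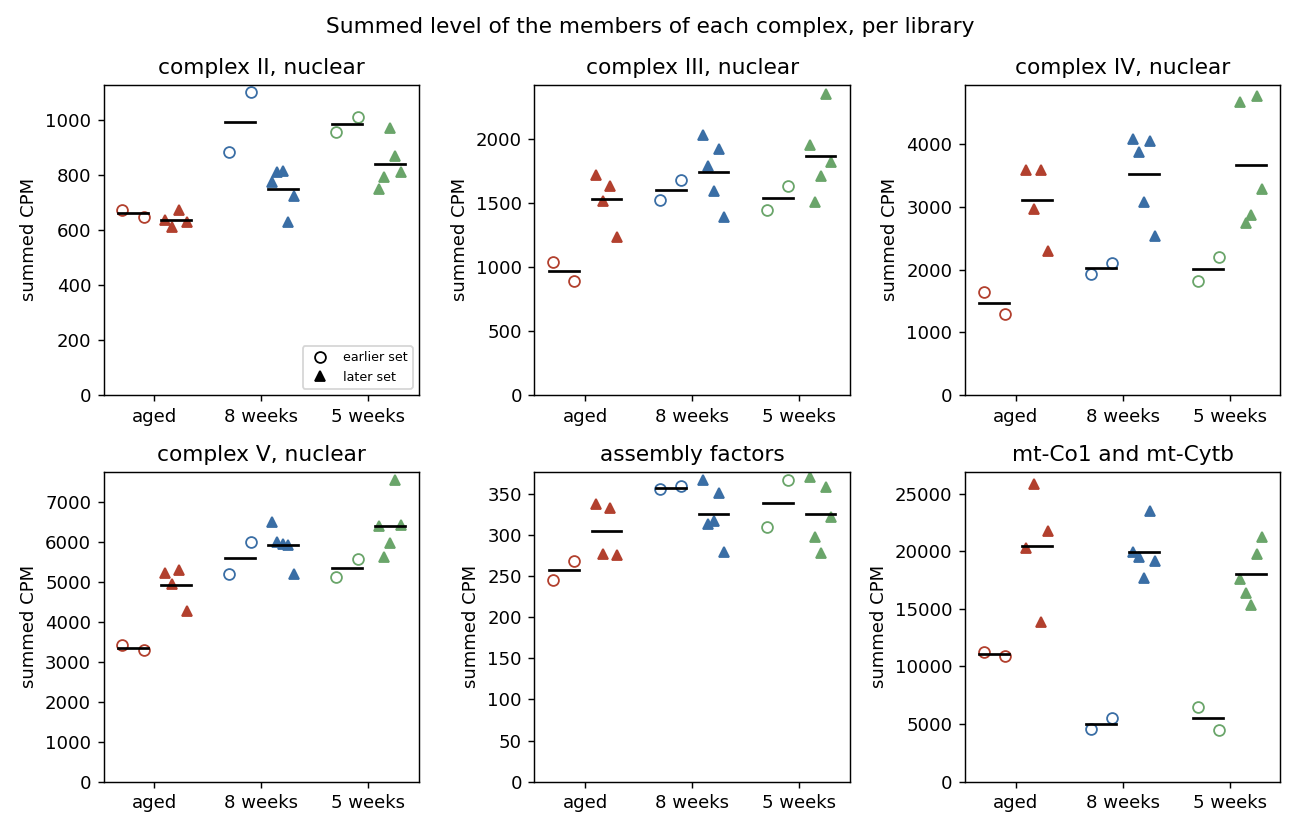
Summed CPM per library (vertical axis, from 0) of the subunits of each complex, the 12 assembly factors and the 2 mitochondrially encoded members, in aged, 8-week and 5-week uteri. Open circles are the earlier and triangles the later set, and bars are means. The 2 aged libraries of the earlier set lie below the 4 younger ones in every nuclear panel and above them in the mitochondrial panel.

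Of the 4 subunits of complex II, Sdhb and Sdhd fell in aged uteri against both ages, while Sdha and Sdhc did not pass the test. Sdhb (GRCm38 chromosome 4, 140961203 to 140979193, plus strand) is the iron-sulfur subunit that carries electrons towards ubiquinone. It had 90.8 to 155 CPM (median 123) in aged libraries, against 141 to 258 CPM (median 198) in 8-week libraries and 157 to 298 CPM (median 197) in 5-week libraries. Its log2 fold change was -0.69 ± 0.17 against 8 weeks (adjusted p = 0.0107) and -0.74 ± 0.17 against 5 weeks (adjusted p = 0.00529). The call held without any 1 of the 20 libraries, although 1 of the 4 later-set aged libraries, replicate 7 at 92.7 CPM, lay below every younger one of its set. Against 8 weeks the call ended in the later set alone (adjusted p = 0.237), with columns attached by file (0.132) and without the 4 libraries filed under another age or set (0.0636), and against 5 weeks it ended in the later set alone (0.124).

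Sdhd, a membrane anchor of complex II, had 138 to 175 CPM (median 165) in aged libraries, against 173 to 254 CPM (median 226) in 8-week libraries and 204 to 344 CPM (median 233) in 5-week libraries. For Sdhd the log2 fold change was -0.44 ± 0.14 against 8 weeks (adjusted p = 0.0319) and -0.61 ± 0.14 against 5 weeks (adjusted p = 0.00378). Against 5 weeks the call held without any 1 library. There it ended in the later set alone (adjusted p = 0.0669) and in the earlier set alone (0.0568). Against 8 weeks leaving out any 1 of aged replicates 1, 2 and 7 and 8w replicates 1, 2 and 3 ended it (adjusted p 0.0565 to 0.0836). It also ended there in the later set alone (0.399), with median centring (0.0847), no set term (0.0697) or a replicate block (0.0767). The same held with columns attached by file (0.211) and without the 4 libraries filed under another age or set (0.153). Of the 4 later-set aged libraries, 3 lay below every younger one of that set. Sdha, the flavoprotein that oxidises succinate, had 205 to 311 CPM (median 236) in aged libraries, against 162 to 458 CPM (median 277) in 8-week libraries and 144 to 412 CPM (median 314) in 5-week libraries. Its values were -0.11 ± 0.18 against 8 weeks (adjusted p = 0.704) and -0.17 ± 0.18 against 5 weeks (adjusted p = 0.53), and the groups overlapped. Sdhc, the other anchor, was at -0.15 ± 0.18 (adjusted p = 0.588) against 8 weeks.

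In complex III, 2 of 9 nuclear subunits fell against 8 weeks and 4 of 9 against 5 weeks, where 8.53% and 9.41% of all genes fell. Uqcrfs1 (GRCm38 chromosome 13, 30540308 to 30545362, minus strand) is the Rieske iron-sulfur protein, which hands electrons to cytochrome c1. It had 86.7 to 124 CPM (median 118) in aged libraries, against 107 to 186 CPM (median 142) in 8-week libraries and 152 to 188 CPM (median 179.6) in 5-week libraries. The log2 fold change of Uqcrfs1 was -0.39 ± 0.13 against 8 weeks (adjusted p = 0.0456) and -0.59 ± 0.13 against 5 weeks (adjusted p = 0.00364). Against 5 weeks no single library ended the call, but it ended in the later set alone (adjusted p = 0.0979). Against 8 weeks, leaving out any 1 of 15 libraries, that is, all but aged replicates 4 and 7, 8w replicate 6, and 5w replicates 5 and 6, ended it (adjusted p 0.0507 to 0.127).

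Uqcrq, a small membrane subunit of complex III, had 76.8 to 173 CPM (median 113) in aged libraries, against 119.8 to 238 CPM (median 182) in 8-week libraries and 143 to 241 CPM (median 164) in 5-week libraries. Its log2 fold change was -0.61 ± 0.21 against 8 weeks (adjusted p = 0.0474) and -0.65 ± 0.21 against 5 weeks (adjusted p = 0.0282). These calls lay near the threshold: against 8 weeks leaving out any 1 of 11 libraries, that is, all but aged replicates 4, 5 and 6, 8w replicates 4 and 7, and 5w replicates 3, 4, 5 and 6, ended it (adjusted p 0.0536 to 0.117), and against 5 weeks leaving out any 1 of aged replicates 1, 2 and 7 and 5w replicates 2 and 6 ended it (adjusted p 0.0555 to 0.0756).

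The other 2 calls in complex III were made against 5 weeks. Uqcrb, another small subunit, had 30.2 to 207 CPM (median 149) in aged libraries, against 49.3 to 332 CPM (median 213) in 8-week libraries and 48.6 to 405 CPM (median 176) in 5-week libraries. In Uqcrb the log2 fold change was -0.58 ± 0.21 against 8 weeks (adjusted p = 0.0615) and -0.59 ± 0.21 against 5 weeks (adjusted p = 0.0482). Leaving out any 1 of 14 libraries, that is, all but aged replicates 4 and 5, 8w replicates 3 and 7, and 5w replicates 4 and 5, ended it (adjusted p 0.0508 to 0.111). Uqcrc2, a core protein, had 155 to 233 CPM (median 190.2) in aged libraries, against 203 to 278 CPM (median 233) in 8-week libraries and 202 to 289 CPM (median 241) in 5-week libraries, with log2 fold changes of -0.30 ± 0.12 against 8 weeks (adjusted p = 0.0955) and -0.36 ± 0.12 against 5 weeks (adjusted p = 0.0439). For Uqcrc2, leaving out any 1 of 11 libraries, that is, all but aged replicates 1, 4 and 5, 8w replicates 2, 4, 6 and 7, and 5w replicates 3 and 5, ended it (adjusted p 0.0526 to 0.107).

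Cyc1, cytochrome c1, which passes electrons to cytochrome c, parted by age in the earlier set. There it had 100.4 and 106 CPM in aged libraries, against 234 and 292 CPM in 8-week and 221 and 257 CPM in 5-week libraries. Later-set values were 111, 82.7, 127 and 125 CPM in aged libraries, against 125, 86.2, 129, 110.4 and 117 CPM in 8-week and 113, 112, 192, 90.9 and 118 CPM in 5-week libraries, and the groups overlapped. Over both sets its log2 fold change was -0.44 ± 0.21 against 8 weeks (adjusted p = 0.153) and -0.48 ± 0.21 against 5 weeks (adjusted p = 0.106), which did not pass. The difference between the sets had an unadjusted p of 0.00172 and an adjusted p of 0.125 against 8 weeks. Uqcrc1, the other core protein, had 128 to 241 CPM (median 175) in aged libraries, against 171 to 313 CPM (median 192) in 8-week libraries and 130.3 to 293 CPM (median 186) in 5-week libraries and did not pass either, at -0.28 ± 0.18 against 8 weeks (adjusted p = 0.297) and -0.27 ± 0.18 against 5 weeks (adjusted p = 0.279). The remaining nuclear subunits, Uqcrh, Uqcr10 and Uqcr11, were not called, with values between -0.45 and -0.08 in the pair of comparisons.

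Cox5a, a nuclear subunit of complex IV on the matrix side of the enzyme (GRCm38 chromosome 9, 57521274 to 57532426, plus strand), had the lowest fitted value of the 57 members. In the earlier set it had 66.2 and 63.5 CPM in aged libraries, against 177 and 226 CPM in 8-week and 162 and 204 CPM in 5-week libraries. In the later set it had 73.2, 58.0, 96.7 and 75.4 CPM in aged libraries, against 137, 154, 119, 109.7 and 104 CPM in 8-week and 134, 104, 145, 153 and 138 CPM in 5-week libraries. No aged value reached a younger one in either set, and 5w replicate 3, whose column lies in a file of the aged group, had 134 CPM.

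The log2 fold change of Cox5a was -0.998 ± 0.17 against 8 weeks (adjusted p = 0.000604) and -1.04 ± 0.17 against 5 weeks (adjusted p = 0.000246). Against 8 weeks it was -1.61 in the earlier set and -0.72 in the later set, and the difference between sets had an unadjusted p of 0.0091 and an adjusted p of 0.19. Of 32 alternative settings and left-out libraries, 31 kept the call against 8 weeks, the exception being the later set alone, and 32 kept it against 5 weeks. Cox5a shares 12.8% of its exonic bases with an opposite-strand gene, and the library kit named in the labels does not keep strand, so reads within that stretch cannot be told apart.

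Its promoter is printed because the gene lay lowest of all members. The 300 bases, from 250 before to 50 after the start of the gene in RefSeq, lie at chr9:57520982-57521281 on the plus strand of GRCm38.p6.
Cox5a: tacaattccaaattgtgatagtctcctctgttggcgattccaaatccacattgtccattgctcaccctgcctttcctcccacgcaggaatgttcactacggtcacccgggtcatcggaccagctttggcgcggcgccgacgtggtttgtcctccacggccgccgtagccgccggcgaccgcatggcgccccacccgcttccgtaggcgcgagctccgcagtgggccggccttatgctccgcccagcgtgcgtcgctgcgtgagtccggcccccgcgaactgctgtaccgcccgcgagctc

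The other called subunits of complex IV were Cox7a2 and Cox7b, which fell against 5 weeks. Cox7a2, the common form of subunit 7a, had 66.0 to 151 CPM (median 107) in aged libraries, against 107 to 190.4 CPM (median 134) in 8-week libraries and 121 to 287 CPM (median 156) in 5-week libraries. Cox7a2 had log2 fold changes of -0.51 ± 0.20 against 8 weeks (adjusted p = 0.0837) and -0.63 ± 0.20 against 5 weeks (adjusted p = 0.0297), and against 5 weeks leaving out any 1 of aged replicates 1, 2 and 7 and 5w replicates 2, 6 and 7 ended it (adjusted p 0.0534 to 0.0787). Cox7b had 104 to 183 CPM (median 132) in aged libraries, against 149.9 to 275 CPM (median 175) in 8-week libraries and 130.3 to 326 CPM (median 187) in 5-week libraries. For Cox7b the log2 fold change was -0.46 ± 0.17 against 8 weeks (adjusted p = 0.0635) and -0.51 ± 0.17 against 5 weeks (adjusted p = 0.0339). Against 5 weeks, leaving out any 1 of aged replicates 1, 2, 6 and 7 and 5w replicates 2, 6 and 7 ended it (adjusted p 0.0526 to 0.0853).

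Other subunits of complex IV did not pass the test. Cox4i1, the common form of subunit 4 through which ATP acts on the enzyme, was the one nuclear subunit of complexes II to V with positive values in both comparisons. It had 372 to 787 CPM (median 579) in aged libraries, against 435 to 666 CPM (median 524) in 8-week libraries and 392 to 759.9 CPM (median 474) in 5-week libraries, with log2 fold changes of 0.14 ± 0.15 against 8 weeks (adjusted p = 0.547) and 0.17 ± 0.15 against 5 weeks (adjusted p = 0.424). Cox5b, which binds zinc, had 48.0 to 196 CPM (median 130.2) in aged libraries, against 68.8 to 189.6 CPM (median 149) in 8-week libraries and 67.0 to 235 CPM (median 172) in 5-week libraries, and its values were -0.23 ± 0.14 against 8 weeks (adjusted p = 0.276) and -0.37 ± 0.14 against 5 weeks (adjusted p = 0.0679). Cox6a1, the common form of subunit 6a, had 151 to 493.4 CPM (median 341) in aged libraries, against 281 to 511 CPM (median 419) in 8-week libraries and 289 to 594 CPM (median 379) in 5-week libraries, with log2 fold changes of -0.37 ± 0.17 against 8 weeks (adjusted p = 0.147) and -0.38 ± 0.17 against 5 weeks (adjusted p = 0.113). In these 3 genes the aged and younger libraries overlapped in the later set.

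Cox8a, the common form of subunit 8, had 167 to 581 CPM (median 434) in aged libraries, against 262 to 553 CPM (median 414) in 8-week libraries and 281 to 695 CPM (median 449) in 5-week libraries. Its fitted values were -0.12 ± 0.17 against 8 weeks (adjusted p = 0.664) and -0.21 ± 0.17 against 5 weeks (adjusted p = 0.392), and within the later set it was at 0.09 against 8 weeks. Forms of complex IV known from other tissues were present at low levels. Cox7a1, the form of heart and skeletal muscle, had 0.815 to 1.62 CPM (median 1.30) in aged libraries, against 0.860 to 2.05 CPM (median 1.04) in 8-week libraries and 1.10 to 2.28 CPM (median 1.40) in 5-week libraries, and Cox6b2, the form of the testis, had 5.32 to 16.6 CPM (median 9.95) in aged libraries, against 2.66 to 24.2 CPM (median 15.6) in 8-week libraries and 6.21 to 27.3 CPM (median 15.8) in 5-week libraries. Neither passed the test, at -0.01 ± 0.14 (adjusted p = 0.963) and -0.19 ± 0.24 (adjusted p = 0.6251) against 8 weeks. The remaining subunits, Cox6b1, Cox6c and Cox7c, were not called and lay between -0.46 and -0.22.

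Cox7a2l, which joins complex III to complex IV in a supercomplex, was the member that rose. C57BL/6J mice carry a shortened, less stable form of this protein. In the earlier set the gene (GRCm38 chromosome 17, 83501918 to 83517330, minus strand) had 259.6 and 165 CPM in aged libraries, against 111 and 98.7 CPM in 8-week and 94.96 and 110.2 CPM in 5-week libraries. Later-set values were 566, 446, 505 and 618 CPM in aged libraries, against 276, 376, 342, 348 and 306 CPM in 8-week and 464, 317, 347, 454 and 338 CPM in 5-week libraries. All aged libraries but replicate 5 lay above every younger library of their set, since 5w replicates 3 and 6 exceeded aged replicate 5.

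Its log2 fold change was 0.78 ± 0.15 against 8 weeks (adjusted p = 0.00144) and 0.65 ± 0.15 against 5 weeks (adjusted p = 0.00406). The call held without any 1 library, and without the 4 libraries filed under another age or set the values were 0.87 and 0.83. It ended in the later set alone (adjusted p = 0.0547 against 8 weeks and 0.125 against 5 weeks), with no set term (0.371 and 0.455) and with columns attached by file (0.172 and 0.0942). Of the 60-base windows of the Cox7a2l coding sequence, 49.4% also lie in an annotated pseudogene. The promoter of this gene, printed as that of the member that moved the other way, lies at chr17:83514284-83514583 on the minus strand. It is set by the RefSeq start and lies inside the gene span given above, which is from GENCODE. Bases before the GENCODE start were not searched.
Cox7a2l: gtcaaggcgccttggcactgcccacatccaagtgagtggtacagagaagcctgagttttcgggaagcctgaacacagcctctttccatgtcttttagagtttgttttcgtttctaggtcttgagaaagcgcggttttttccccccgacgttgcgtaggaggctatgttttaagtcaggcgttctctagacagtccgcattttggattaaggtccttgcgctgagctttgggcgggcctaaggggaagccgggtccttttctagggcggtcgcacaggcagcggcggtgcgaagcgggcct

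In complex V, 3 of 17 subunits fell against 8 weeks and 6 of 17 against 5 weeks, where 8.53% and 9.41% of all genes fell. Members of the c ring, the stalk and the catalytic head were among the subunits that fell. The c ring, which turns as protons pass, is made of a short protein encoded by Atp5g1, Atp5g2 and Atp5g3, whose mature forms are identical. Atp5g3 (GRCm38 chromosome 2, 73908447 to 73911326, minus strand) had 228 and 242 CPM in the aged libraries of the earlier set, against 516 and 579.7 CPM in 8-week and 449.5 and 479.8 CPM in 5-week libraries. In the later set it had 234, 195, 241 and 200.05 CPM in aged libraries, against 319, 275, 305, 285 and 276 CPM in 8-week and 331, 319, 375, 327 and 312 CPM in 5-week libraries. The groups did not overlap in either set, and 5w replicate 3 had 331 CPM.

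Atp5g3 had a log2 fold change of -0.67 ± 0.13 against 8 weeks (adjusted p = 0.00155) and -0.74 ± 0.13 against 5 weeks (adjusted p = 0.000507). Against 8 weeks it was -1.22 in the earlier and -0.43 in the later set, and the difference between sets had an unadjusted p of 0.00176 and an adjusted p of 0.125. Against 5 weeks the call held in all 32 alternative settings and left-out libraries. Against 8 weeks it held in 30 of 32 and was lost in the later set alone (adjusted p = 0.129) and with columns attached by file (0.0714). None of its 60-base coding windows lies in another annotated gene.

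Its promoter is printed because it holds matches to motifs of factors known to act on respiratory genes. It lies at chr2:73911277-73911576 on the minus strand, and capitals mark, in order, a match to the estrogen-related receptor motif and a match to the core motif of nuclear respiratory factor 1, both on the other strand.
Atp5g3: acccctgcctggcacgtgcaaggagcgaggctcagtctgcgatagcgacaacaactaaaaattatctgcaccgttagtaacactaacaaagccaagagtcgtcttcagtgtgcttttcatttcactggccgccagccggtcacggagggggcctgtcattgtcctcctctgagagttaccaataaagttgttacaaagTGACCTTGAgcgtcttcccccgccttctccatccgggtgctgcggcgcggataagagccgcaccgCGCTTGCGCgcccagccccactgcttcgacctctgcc

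Atp5g1, the other c-ring gene that fell, had 18.6 to 195 CPM (median 127) in aged libraries, against 51.2 to 255 CPM (median 168) in 8-week libraries and 47.6 to 241 CPM (median 183) in 5-week libraries. The log2 fold change of Atp5g1 was -0.71 ± 0.17 against 8 weeks (adjusted p = 0.0099) and -0.73 ± 0.17 against 5 weeks (adjusted p = 0.00627), and it held without any 1 library. It ended against 8 weeks without the 4 libraries filed under another age or set (adjusted p = 0.0837), and in both comparisons in the later set alone, with no set term and with columns attached by file (0.141 to 0.517). Both aged libraries of the earlier set and 3 of 4 of the later set lay below every younger library of their set. Atp5g2 had 1.93 to 342 CPM (median 276) in aged libraries, against 2.41 to 412 CPM (median 303) in 8-week libraries and 2.42 to 589 CPM (median 282) in 5-week libraries, a range that parts by set and not by age, and was at -0.18 ± 0.20 against 8 weeks (adjusted p = 0.57) and -0.29 ± 0.20 against 5 weeks (adjusted p = 0.308).

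The stalk keeps the catalytic head from turning with the ring, and Atp5pb encodes its subunit b. It had 144 to 324 CPM (median 271) in aged libraries, against 257 to 413 CPM (median 362) in 8-week libraries and 230.1 to 567.9 CPM (median 379) in 5-week libraries. Atp5pb had log2 fold changes of -0.46 ± 0.13 against 8 weeks (adjusted p = 0.0168) and -0.57 ± 0.13 against 5 weeks (adjusted p = 0.00335), kept without any 1 library. Without the 4 libraries filed under another age or set, the call against 8 weeks ended (adjusted p = 0.0859), as it did with median centring (0.0604). In both comparisons it ended in the later set alone, with no set term and with columns attached by file (0.0693 to 0.382). Among the 4 later-set aged libraries, 3 lay below every younger one of that set.

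The catalytic head makes ATP on its beta subunit, encoded by Atp5b, beside the alpha subunit, encoded by Atp5a1. Atp5b had 839 to 1058 CPM (median 985) in aged libraries, against 853 to 1915 CPM (median 1335) in 8-week libraries and 982 to 1745 CPM (median 1380.5) in 5-week libraries. Its log2 fold change was -0.42 ± 0.16 against 8 weeks (adjusted p = 0.0679) and -0.50 ± 0.16 against 5 weeks (adjusted p = 0.0261), and against 5 weeks leaving out any 1 of aged replicates 1 and 2 and 5w replicates 2 and 7 ended it (adjusted p 0.0501 to 0.0682). Atp5a1 had 472 to 823 CPM (median 641) in aged libraries, against 502 to 1483 CPM (median 797) in 8-week libraries and 521 to 1285 CPM (median 824) in 5-week libraries. For Atp5a1 the values were -0.40 ± 0.17 against 8 weeks (adjusted p = 0.113) and -0.49 ± 0.17 against 5 weeks (adjusted p = 0.0484), and against 5 weeks leaving out any 1 of 14 libraries, that is, all but aged replicate 7, 8w replicates 2, 6 and 7, and 5w replicates 3 and 6, ended it (adjusted p 0.0509 to 0.0983). Both genes overlapped between age groups when the sets were joined.

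Atp5c1, the gamma subunit that turns inside the head, had 202 to 448 CPM (median 315) in aged libraries, against 283 to 469 CPM (median 381) in 8-week libraries and 256 to 605 CPM (median 374) in 5-week libraries and did not pass, at -0.21 ± 0.15 against 8 weeks (adjusted p = 0.357) and -0.26 ± 0.15 against 5 weeks (adjusted p = 0.222). Atp5k, the membrane subunit e of ATP synthase, had 39.2 to 74.4 CPM (median 56.9) in aged libraries, against 43.2 to 106 CPM (median 91.9) in 8-week libraries and 68.2 to 109.6 CPM (median 85.8) in 5-week libraries. For Atp5k the log2 fold change was -0.50 ± 0.20 against 8 weeks (adjusted p = 0.0943) and -0.63 ± 0.20 against 5 weeks (adjusted p = 0.0307), and against 5 weeks leaving out any 1 of aged replicates 1, 2 and 7 and 5w replicates 2, 6 and 7 ended it (adjusted p 0.0544 to 0.0752). The other 9 subunits, Atp5d, Atp5e, Atp5h, Atp5j, Atp5o, Atp5l, Atp5j2, Atp5md and Atp5mpl, were not called and lay between -0.56 and -0.13.

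**Figure D3:**
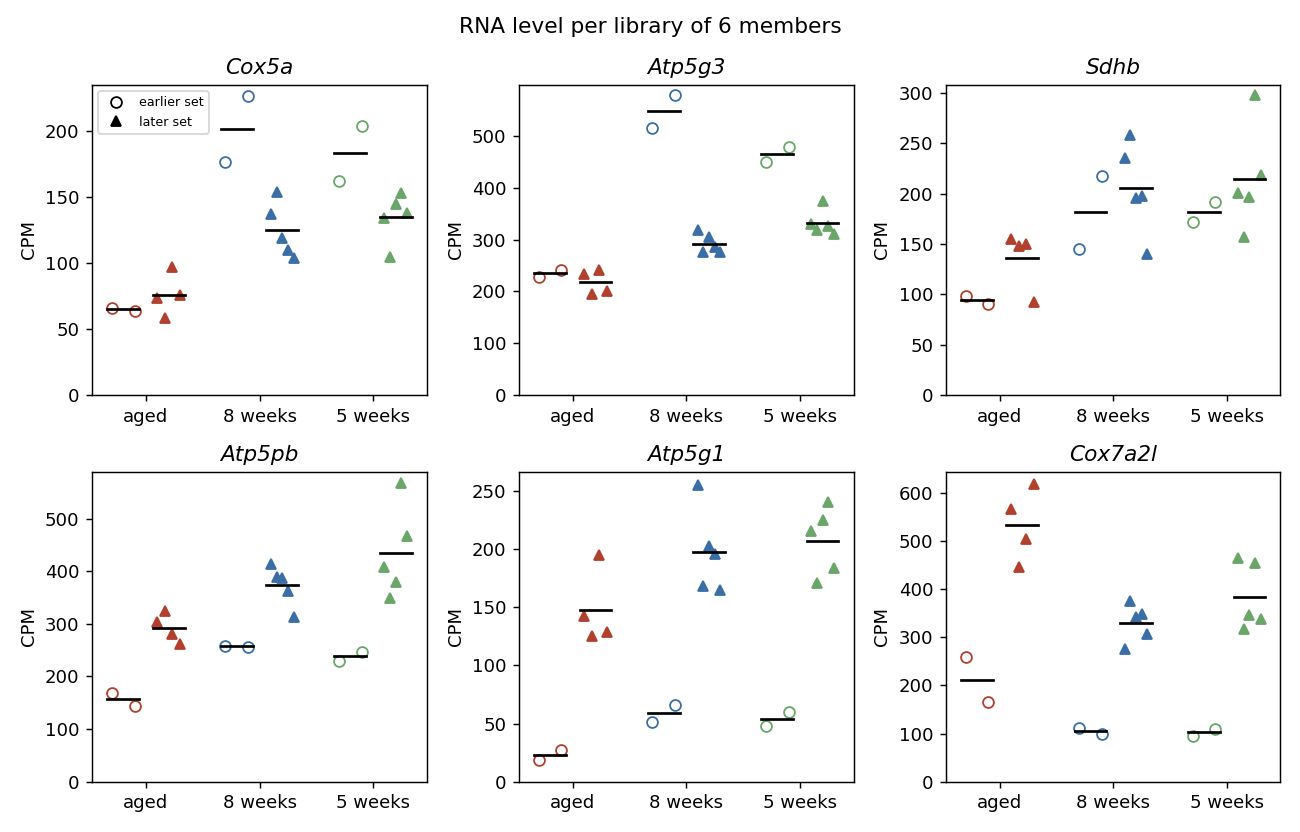
CPM per library (vertical axis, from 0) of Cox5a, Atp5g3, Sdhb, Atp5pb, Atp5g1 and Cox7a2l in aged, 8-week and 5-week uteri. Open circles are the earlier and triangles the later set, and bars are means. The 6 aged libraries lie below every younger one for Cox5a and Atp5g3, and Atp5g1 lies lower in the earlier than in the later set at each age.

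Of the 12 assembly factors, Cox18 fell against 8 weeks, and against 5 weeks the adjusted p of each was above 0.05. Cox18, which inserts subunit 2 of complex IV into the inner membrane, had 5.95 to 14.7 CPM (median 10.2) in aged libraries, against 9.72 to 24.9 CPM (median 19.7) in 8-week libraries and 10.2 to 21.9 CPM (median 15.8) in 5-week libraries. Cox18 was at -0.75 ± 0.22 against 8 weeks (adjusted p = 0.0269) and -0.59 ± 0.22 against 5 weeks (adjusted p = 0.0623), and against 8 weeks leaving out any 1 of aged replicates 1 and 2 and 8w replicates 1, 2, 3 and 5 ended it (adjusted p 0.0526 to 0.0801). It had 5.95 and 8.92 CPM in the aged libraries of the earlier set, against 21.7 and 24.9 CPM in 8-week and 21.9 and 20.8 CPM in 5-week libraries, while the later-set groups overlapped. The other factors, 4 for complex II (Sdhaf1 to Sdhaf4) and 7 for complex IV, lay between -0.53 for Cox10, which takes part in making heme A, and 0.41 for Cox17, a copper chaperone.

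The 2 mitochondrially encoded members did not pass the test, and in the earlier set their values were positive, while 38 of the 42 nuclear subunits were negative against 8 weeks and 39 of 42 against 5 weeks. mt-Co1, the catalytic subunit of complex IV, had 7761 and 6538 CPM in the aged libraries of the earlier set, against 2586 and 3062 CPM in 8-week and 3744 and 2569 CPM in 5-week libraries. Its later-set values were 12508, 17143, 8461 and 15094 CPM in aged libraries, against 12607, 13474, 11475, 14448 and 12836 CPM in 8-week and 10569, 10656, 10662, 12117 and 13600.0 CPM in 5-week libraries. Aged libraries were higher in the earlier set and lay on both sides of the younger ones in the later set.

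For mt-Co1 the log2 fold change was 0.42 ± 0.24 against 8 weeks (adjusted p = 0.242) and 0.50 ± 0.24 against 5 weeks (adjusted p = 0.14). It was 1.34 in the earlier set and -0.01 in the later set against 8 weeks, and the difference between sets had an unadjusted p of 0.00534 and an adjusted p of 0.161. mt-Cytb, cytochrome b of complex III, had 3495 to 8703 CPM (median 6052) in aged libraries, against 1979 to 9071 CPM (median 6168) in 8-week libraries and 1907 to 7620.4 CPM (median 5725) in 5-week libraries and was at 0.28 ± 0.20 against 8 weeks (adjusted p = 0.37) and 0.34 ± 0.20 against 5 weeks (adjusted p = 0.247). Genes of mitochondrial DNA took 1.90% of CPM in aged libraries of the earlier set, against 0.944% in 8-week and 0.995% in 5-week libraries. Later-set shares were 3.33%, against 3.12% and 2.90%. Rescaling CPM to nuclear genes alone left the number of members called within 1.5 times that reported.

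Between 8 and 5 weeks no member was called in limma, and none of the 12791 genes was (0%). At an unadjusted p under 0.05 there was 1 member and there were 139 genes. The members lay between -0.20 for Uqcrfs1 and 0.41 for Cox17, 8 over 5 weeks. Cox17 was at 0.41 ± 0.19 (adjusted p = 1) and had 6.20 to 13.7 CPM in 8-week libraries, against 3.06 to 9.25 CPM in 5-week libraries. The median over members was -0.04, against 0.03 over all genes.

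More members were called between the library sets than between ages. In the later set 29 of 57 were higher (50.9%), against 20.5% of all genes, and 11 were lower (19.3%), against 38.3%. Median centring, which moved the median of all genes by over 0.1, gave 36 higher and 6 lower members, with 4330 higher and 3497 lower genes, and quantile normalization gave 35 and 9, with 3683 and 3838 genes. As deposited, the median member was at 0.43 on the log2 scale, later over earlier set, against -0.20 for all genes. Atp5g2 had the largest difference, 6.56 ± 0.17 (adjusted p = 2.2e-17), followed by Atp5l at 4.77 ± 0.20 (adjusted p = 9.73e-14) and Cox7c at 4.47 ± 0.19 (adjusted p = 6.66e-14). Atp5l encodes the membrane subunit g of ATP synthase, and Cox7c a small subunit of complex IV.

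Cox7c had 209.7 to 636 CPM in the 14 libraries of the later set, against 11.6 to 18.8 CPM in the 6 of the earlier set. Atp5l had 155 to 464 CPM in the later set, against 6.44 to 13.1 CPM in the earlier set. Atp5g2 had 214 to 589 CPM in the later set, against 1.93 to 3.65 CPM in the earlier set. The sets did not overlap for any of these 3 genes.

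Per kilobase of exon, the shares of the 3 c-ring genes differed between the sets. Atp5g2 made up 36.9% to 64.0% of the summed CPM per kilobase of the 3 c-ring genes in the later set, against 0.513% to 1.28% in the earlier set. Atp5g3 made up 27.2% to 49.8% in the later set, against 93.8% to 95.3% in the earlier set. The age groups overlapped in the later set. In the earlier set, where Atp5g2 had 1.93 to 3.65 CPM, its share was 0.978% to 1.28% in aged libraries, against 0.513% to 0.650% in 8-week and 0.666% to 0.929% in 5-week libraries.

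These genes share a feature that the choice of members did not use, which is that their coding sequence also lies elsewhere in the annotated transcripts. Processed pseudogenes are copies of a messenger RNA set back into the genome, and reads from a gene with such copies can be assigned to more than 1 place. The whole Cox7c coding sequence (192 bases, GENCODE release 21, chromosome 13, minus strand) is printed here, with capitals marking bases whose 60-base windows also lie in another annotated gene, which is every base.
Cox7c: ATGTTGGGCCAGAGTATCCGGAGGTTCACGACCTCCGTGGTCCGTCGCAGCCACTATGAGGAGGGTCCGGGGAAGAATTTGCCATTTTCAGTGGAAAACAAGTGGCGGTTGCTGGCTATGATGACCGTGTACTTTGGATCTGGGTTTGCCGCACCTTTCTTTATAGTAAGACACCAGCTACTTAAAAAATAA

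All 133 of its 60-base and all 43 of its 150-base windows lie in 2 annotated pseudogenes. The labels name single reads of 60 bases and paired reads of 150 bases without saying which libraries have which. For Atp5g2 and Atp5l, likewise, 100% of the windows of either length lie in another gene, 2 pseudogenes for Atp5g2 and 10 for Atp5l. Over members, 31 had no 60-base coding window in another gene, and their median difference between sets was 0.05 (-0.87 to 1.34). In the 14 members with a share under 50% it was 0.64 (-1.14 to 1.66), and in the 12 members with 50% or more it was 2.09 (-0.37 to 6.56). In 4 of these 12 the windows lie in another gene that is no pseudogene. Of these, Cox17 and Sdhaf1 were at 0.07 and -0.37, and Cox5b and Cox16 at 1.39 and 0.69. The part of copied sequence in the difference between sets was not tested.

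**Figure D4:**
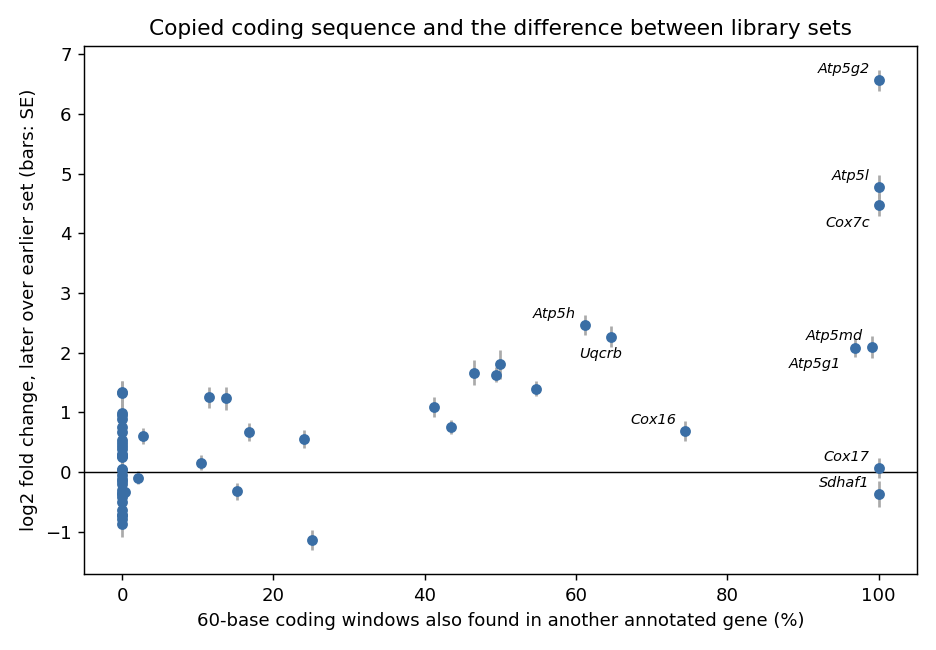
Share of the 60-base windows of each member's coding sequence that also lie in another annotated gene (horizontal axis, %) and log2 fold change of CPM + 1 in the later over the earlier set (vertical axis, bars are standard errors), 1 point per member. Atp5g2, Atp5l and Cox7c lie highest, at 6.56, 4.77 and 4.47, all with a share of 100%.

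The age difference was also counted over the 24 members with neither a copied coding window nor an exon shared with another gene. Of these, 6 fell against 8 weeks (Sdhb, Sdhd, Uqcrfs1, Uqcrq, Cox18 and Atp5g3) and 8 against 5 weeks (Sdhb, Sdhd, Uqcrfs1, Uqcrq, Cox7a2, Cox7b, Atp5g3 and Atp5k), and 0 rose. These are 25.0% and 33.3%, against 8.53% and 9.41% of all genes. Their median was -0.41 and -0.46 on the log2 scale, against 0.05 and 0.09 for all genes. Without the 4 libraries filed under another age or set, limma no longer called Sdhb, Sdhd, Uqcrfs1, Uqcrq and Cox18 against 8 weeks. Against 5 weeks the same step ended the calls of Uqcrq, Cox7a2, Cox7b and Atp5k. Median centring ended those of Sdhd, Uqcrfs1 and Uqcrq against 8 weeks, and of Cox7a2 and Cox7b against 5 weeks. In the later set alone, only Atp5g3 of the 24 was called, against 5 weeks. Among the called members outside the 24, Cox5a has 15.2% of its 60-base windows in another gene, Atp5pb 43.5%, Uqcrb 64.6% and Atp5g1 96.9%. Uqcrc2, called against 5 weeks, shares 19.7% of its exonic bases with an opposite-strand gene.

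In the later set, short subunits had a mean deviation farther from 0 than long ones in 13 of 14 libraries, the exception being aged replicate 5, and the signs were opposite in 8 of 14. Deviations were taken from the mean of the age group. Over 861 pairs of the 42 nuclear subunits, the median Pearson correlation of these deviations was 0.51 across 14 libraries, which share depth and RNA quality within a library. The 16 subunits with a coding sequence under 300 bases, such as Cox7c, Uqcrq and Atp5k, had a mean deviation of 0.54 in 5w replicate 6, of -0.53 in 8w replicate 7 and of -0.49 in aged replicate 7, on the log2 scale. All 16 lay above the group mean in 5w replicate 6 and 0 of 16 in 8w replicate 7 and aged replicate 7. The 9 with a coding sequence over 800 bases, such as Sdha, Atp5a1 and Atp5b, deviated by -0.21 to 0.24. Chosen after the values were seen, these classes get no test, and what moves with length among libraries was not tested.

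**Figure D5:**
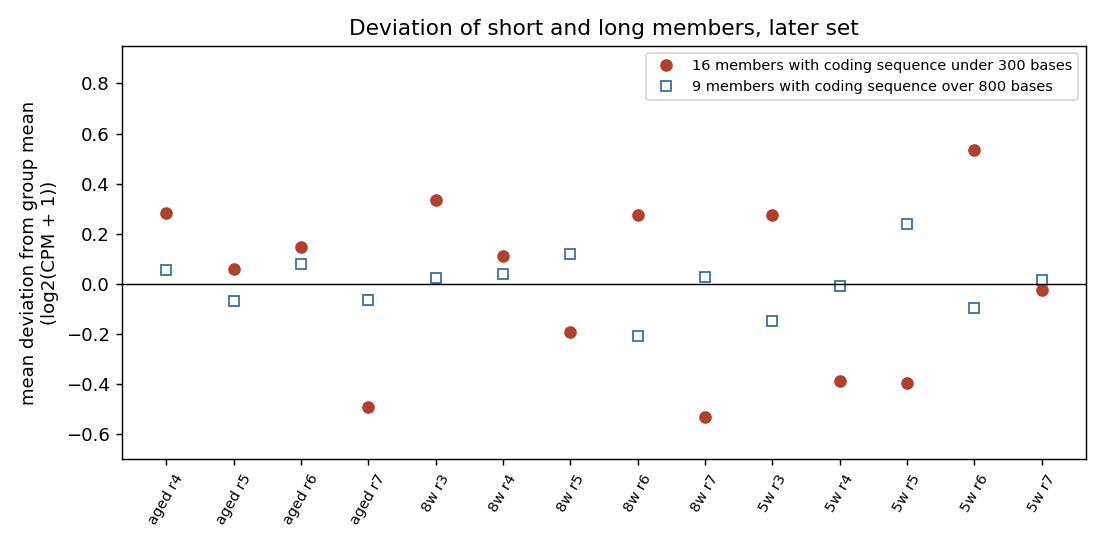
Mean deviation of log2(CPM + 1) from the mean of the same age group (vertical axis) in each later-set library, for 16 subunits with a coding sequence under 300 bases (filled circles) and 9 with one over 800 bases (open squares). The short subunits span -0.53 to 0.54 and the long ones -0.21 to 0.24.

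Other parts of the respiratory chain and its supply were counted in the same fits. Genes of complex I, the entry point for electrons from NADH, were taken as the 51 with symbols starting in Nduf or mt-Nd. That rule does not part subunits from assembly factors. Of these 51, 5 fell (9.80%, against 8.53% of all genes) and 2 rose against 8 weeks. Against 5 weeks 6 fell (11.8%, against 9.41%) and 2 rose, so the shares that fell were near those of all genes. The median of the 51 was -0.18 and -0.25, against -0.28 and -0.34 for the members and 0.05 and 0.09 for all genes. The complex I genes that rose are encoded in mitochondrial DNA: mt-Nd5, at 0.89 ± 0.23 (adjusted p = 0.0119) against 8 weeks, and mt-Nd6, at 0.83 ± 0.19 (adjusted p = 0.00652). Of 8 listed genes for ATP and phosphate carriers, outer membrane pores and the inhibitor of ATP synthase, 5 fell against 8 weeks (62.5%, against 8.53% of all genes). Against 5 weeks 3 of the 8 fell (37.5%, against 9.41%), and the medians of the 8 were -0.43 and -0.35. Slc25a5, which exchanges ATP for ADP across the inner membrane, fell in both, at -0.97 ± 0.15 (adjusted p = 0.000496) and -1.05 ± 0.15 (adjusted p = 0.000122). Among 28 further assembly factors of complexes II to V, 3 fell in each comparison (10.7%, near the shares of all genes), with Higd1a at -0.98 ± 0.21 (adjusted p = 0.00402) against 8 weeks, and 0 and 1 rose. The median of these 28 was -0.14 against 8 weeks and -0.16 against 5 weeks.

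The 11 regulators of nuclear respiratory genes had a median of -0.20 in each comparison. Of them 1 rose in each (9.09%, against 8.64% and 12.7% of all genes) and 0 fell. This was Ppargc1a, a coactivator known to raise respiratory gene transcription in muscle and brown fat, at 1.15 ± 0.28 (adjusted p = 0.00946) against 8 weeks and 1.00 ± 0.28 (adjusted p = 0.0163) against 5 weeks. It averaged 14.1 ± 8.28 CPM in aged libraries (SD, n = 6), against 5.19 ± 2.29 CPM in 8-week and 5.84 ± 2.55 CPM in 5-week libraries (n = 7 each). Of 18 genes for copying and expressing mitochondrial DNA, 1 fell (5.56%, against 8.53% and 9.41% of all genes) and 0 rose in each comparison. It was Pnpt1, a polynucleotide phosphorylase of the mitochondrion, at -0.96 ± 0.18 (adjusted p = 0.00106) against 5 weeks.

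Markers of cell types moved with age in the same libraries, and their part in the members' values was not tested. All 14 markers of cycling cells fell against both ages, with a median of -3.00 against 8 weeks. Their summed level was 145 to 373 CPM in aged libraries of the later set, against 594 to 1351 CPM in 8-week and 634 to 1945 CPM in 5-week libraries. In the earlier set it was 176 to 707 CPM in aged libraries, against 2431 to 3122 CPM and 1927 to 2674 CPM in 8-week and 5-week libraries.

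Markers of plasma cells rose in 4 of 7 listed genes against 8 weeks and in 5 of 7 against 5 weeks. Their sum was 1698 to 7561 CPM in aged libraries of the later set. It was 585 to 953 CPM in 8-week and 575 to 875 CPM in 5-week libraries of that set. In the earlier set it was 1008 to 1058 CPM, against 629 to 698 CPM and 448 to 534 CPM in the same order. All 4 listed red blood cell genes rose against 8 weeks and 0 of 4 against 5 weeks. Red blood cell RNA summed to 161 to 281 CPM in aged libraries of the earlier set. It came to 16.1 to 18.3 CPM in 8-week and 36.4 to 73.3 CPM in 5-week libraries of that set. In the later set the groups overlapped, at 51.8 to 201 CPM, against 19.4 to 63.1 CPM and 29.1 to 156 CPM.

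In the main tissue layers few markers were called. Of 10 smooth muscle markers 2 rose against 5 weeks, of 9 epithelial markers 1 rose in each comparison, and of 8 stromal markers 1 rose against 5 weeks, with no other calls in these lists. The median marker was at 0.33 and 0.56 for smooth muscle, at -0.33 and -0.49 for epithelium and at -0.14 and -0.04 for stroma, against 8 and 5 weeks, while the members' medians were -0.28 and -0.34. Smooth muscle genes summed to 3113 to 27398 CPM in aged libraries of the later set. There the sums were 14441 to 20457 CPM in 8-week and 5191 to 15967 CPM in 5-week libraries. Epithelial and stromal sums of that set also overlapped between ages. In the earlier set, stromal genes summed to 4883 to 5127 CPM in aged libraries. Their sums were 1576 to 2974 CPM at 8 weeks and 1804 to 2190 CPM at 5 weeks. Epithelial sums there were 4330 to 4341 CPM, against 6080 to 9086 CPM and 7723 to 8552 CPM in the same order. For smooth muscle they were 3934 to 18395 CPM, against 1770 to 2673 CPM and 2433 to 7949 CPM. Of 9 macrophage markers 1 and 2 rose and of 3 listed adipocyte markers 2 and 1 rose, while the 8 endothelial markers did not pass the test. Tnni2, 1 of 6 listed skeletal muscle markers, fell against 8 weeks. The smallest value listed stands for 10 reads, so no marker counted here was at 0 in any library.

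Promoters of 44 of the 57 members were matched in RefSeq (GRCm38.p6) and searched on both strands for 4 motifs of factors known to act on respiratory genes. The core motif of nuclear respiratory factor 1, GCGCANGCG, was in 14 of 44 members (31.8%), against 7.03% of 27025 genes. The ETS motif CCGGAAG, which the GA-binding protein recognises, was in 20 members (45.5%), against 9.93% of genes. The estrogen-related receptor motif TNAAGGTCA was in 2 members, Sdhd and Atp5g3 (4.55%), against 1.43% of genes. The motif AAGATGGCG of YY1 was in 3 members, Cox10, Atp5j and Atp5j2 (6.82%), against 1.64% of genes. A promoter may hold several of them, as those of Atp5g3 and Sdhd do, and in Atp5g3 the matches do not overlap. Neither the Cox5a nor the Cox7a2l promoter, printed above, holds a match to any of the 4.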

How the data were processed

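RNA of whole uterus was measured in 20 libraries, and the authors deposited 1 table of CPM (reads scaled to 1000000 over the listed genes) per sample. The submitters' processing notes list GRCm38 and the tools edgeR, featureCounts, STAR and fastp, with no versions or roles. Strandedness of counting and the handling of reads with several positions are not given in the sources used here. The list holds 12791 genes with at least 10 reads in every library, so genes silent in a library are not among them. All CPM values were multiples of what 1 read is worth, within 1e-06 of a read, which gave the depth. Of 21 files 20 hold values and 1 repeats gene symbols, which left aged replicate 3 without a column and out of every comparison.

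Members were found by symbol, and members, context lists and marker lists were chosen with earlier results of these data known. Statistics were given for members called in either comparison, for the best-studied subunits and for tissue forms. limma 3.58.1 in R 4.3.3 was fitted to log2(CPM + 1) of all 12791 genes, with age group and library set as terms, a mean-variance trend and Benjamini-Hochberg adjustment over all genes. The test is two-sided, with calls at 0.05, and it was tested on simulated data. Replicate numbers were not taken as pairs, since same-numbered libraries of different ages correlated by -0.505 to 0.279 in their deviations from group means. Alternatives were other pseudocounts (0.1 and 5), a mean of at least 10 CPM, other scalings, no set term, a replicate block, each set alone, columns attached by file and each library left out. Leaving out the 4 libraries filed under another age or set was chosen after seeing the data. Coordinates and copied windows are from GENCODE release 21 on GRCm38, matched for 12767 genes by identifier, with 24 unmatched. Promoters are from RefSeq on GRCm38.p6.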

Additional observations from a re-analysis of the deposited data

Results flagged for a closer look

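Among 90 sets of values (30 members with statistics in 3 age groups), 2 held a library far from the others of its group, and chance alone sets about 1 in 20 groups apart in this way. Cox7a2, the common form of subunit 7a, had 287.2 CPM in 5w replicate 6, against 121 to 187 CPM in the other 5-week libraries. In the same library all 16 subunits with a short coding sequence lay above their group mean. Uqcrfs1, the Rieske protein of complex III, had 86.74 CPM in aged replicate 2, against 113 to 124 CPM in the other aged libraries. Without aged replicate 2 the call of Uqcrfs1 against 8 weeks ended, as it did without 14 other libraries. What set these values apart was not tested.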

How the results depend on the processing

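The direction of every called member was kept under every alternative run. Of 1918 values of the 30 members with statistics under alternatives, 1658 kept direction and call, 212 lost a call, 34 gained one and 14 reversed, none of them a called value. Against 8 weeks Cox6b2 came to 0.59 in the earlier set alone and 0.0067 with columns attached by file, Cox8a to 0.090 in the later set alone and 0.0026 without the 4 libraries filed under another age or set, Sdha to 0.030 and mt-Co1 to -0.0074 in the later set alone. Cox7a1 came to 0.0016 with no set term, to 0.16 (8 weeks) and 0.021 (5 weeks) in the later set alone, and against 8 weeks to -0.077 to 0.046 with 1 library left out.

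The count of members called against 8 weeks (10) was 3 with no set term, 0 in the later and 22 in the earlier set alone, 1 with columns attached by file, 3 without the 4 libraries filed elsewhere and 6 to 15 with 1 library left out. Against 5 weeks (16) it was 5 with no set term, 2 in the later set alone, 7 by file, 9 without the 4 libraries and 8 to 19. With no set term 5.26% of members were called against 8 weeks (7.58% of all genes) and 8.77% against 5 weeks (10.8%). By file these shares were 1.75% (4.42%) and 12.3% (15.7%). In the falling direction they were 5.26% (3.67%) and 8.77% (4.42%) with no set term, and 1.75% (2.00%) and 12.3% (5.68%) by file. Over all genes the count against 8 weeks (2196) was 969 with no set term, 183 in the later and 3613 in the earlier set alone, 565 by file, 1429 without the 4 libraries and 1309 to 2617 with 1 left out. Against 5 weeks (2825) it was 1380 with no set term, 523 in the later set alone and 1982 to 3294 with 1 left out. Between sets, columns attached by file gave 24 members (40) and 3403 genes (7512), and leaving out 1 library 36 to 42 and 6804 to 7813. Between 8 and 5 weeks the counts were 0 throughout. The count of members below every younger library was 1 with median centring and 0 by file. The causes were not tested.

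Differences in the mean log2 sum against 8 weeks, in the later and earlier set alone, were -0.23 and -0.58 for complex II, -0.19 and -0.73 for complex III, -0.26 and -0.73 for complex V, -0.092 and -0.48 for assembly factors and 0.0064 and 1.14 for the mitochondrial members. Against 5 weeks they were -0.39 and -0.57, -0.29 and -0.68, -0.37 and -0.67 for complexes II, III and V, and 0.15 and 1.04 for the mitochondrial members. By file they were -0.28 for complex III, -0.055 for complex IV and -0.36 for complex V against 8 weeks, and -0.40 for complex V against 5 weeks.

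With the replicate number as a block, 6 members were called against 8 weeks and 13 against 5 weeks. Same-numbered libraries share a number and no stated origin: 10 of 19 pairs correlated above 0.1, with a median of 0.104, and 5 of 20 libraries correlated best with their own number. In the earlier set, with 2 libraries per age, deviations from the group mean mirror each other. Its replicates 1 and 2 therefore give the same correlations and are not separate evidence in that count and median. Tests on counts (edgeR, DESeq2) and TMM scaling were planned and not run. The smallest value listed stands for at least 10 reads, so lower levels were not measured here.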
